A study of Mus musculus with 4 samples.

Results

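Mitogen-activated protein (MAP) kinases are the last kinases of a cascade that carries signals from the cell surface to the nucleus. The genes described here are 7 members of that family, namely Mapk3, Mapk6 and Mapk7 of the ERK branch, Mapk8 and Mapk9 of the JNK branch, and Mapk12 and Mapk14 of the p38 branch. They were selected by gene symbol, and each matched 1 row among the 16051 genes of the deposited table. The libraries came from 3T3-L1, a mouse embryonic fibroblast line of NIH Swiss origin that can be driven into adipocytes. Per the study's methods, the cells of both groups were first differentiated with isobutyl-methylxanthine, dexamethasone and insulin, and were then given risperidone or its vehicle, DMSO, for 48 h. Risperidone is an atypical antipsychotic, and it was used at 100 μM in the culture work, while the labels state no dose. Each group had 2 libraries, and RNA of 3 cultures was pooled for each library, so variation from culture to culture is averaged within a library. The labels call the other group untreated where the methods name DMSO, and it is called the control here. If it had received no vehicle, the differences would include that of the vehicle, which cannot be told apart from risperidone.

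In a MAP kinase cascade, a MAP kinase kinase kinase phosphorylates a MAP kinase kinase, which in turn phosphorylates the MAP kinase on its activation loop. ERK1 responds mainly to growth factors and insulin through Ras, whereas the JNK and p38 kinases respond mainly to stress and inflammatory cytokines. In fat cells, JNK1 is known for phosphorylating insulin receptor substrates, ERK1 for a role in the early steps of adipogenesis, and p38α for relaying adrenergic signals. All of this control acts on the proteins, and transcript levels do not report kinase activity.

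The branches differ in the 3 codons that encode the phosphorylated motif of the activation loop, and these codons are shown in capitals within their coding sequence because they separate the ERK, JNK and p38 members. Bases are given 5′ to 3′ on the coding strand, from GENCODE M21 transcripts of the GRCm38 reference, the build that the submitters' processing notes name.
Mapk3: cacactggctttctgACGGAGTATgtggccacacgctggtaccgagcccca
Mapk7: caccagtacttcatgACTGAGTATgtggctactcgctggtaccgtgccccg
Mapk6: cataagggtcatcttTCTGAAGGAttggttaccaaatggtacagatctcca
Mapk8: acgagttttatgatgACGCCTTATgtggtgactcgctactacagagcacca
Mapk9: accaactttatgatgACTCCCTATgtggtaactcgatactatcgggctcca
Mapk12: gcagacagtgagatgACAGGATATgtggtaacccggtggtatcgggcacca
Mapk14: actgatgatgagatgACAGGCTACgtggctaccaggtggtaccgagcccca

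The middle codon was the same within a branch or changed only in its last base. It was GAG in Mapk3 and Mapk7, GAA in Mapk6, CCT or CCC in the JNK genes, and GGA or GGC in the p38 genes. In Mapk3, Mapk7, the JNK genes and the p38 genes, the outer codons encode the threonine and tyrosine that MAP kinase kinases phosphorylate. Mapk6 encodes ERK3, an atypical member whose motif has a serine and no tyrosine. Over the 51 bases, identity was 76.5% between Mapk3 and Mapk7, 78.4% between Mapk8 and Mapk9 and 74.5% between Mapk12 and Mapk14, against 41.2% to 68.6% for the other 18 of the 21 pairs. The printed windows lie in coding exons at chr7:126763443-126763493 on the plus strand for Mapk3 (exon 4 of 9), chr11:61491395-61491445 on the minus strand for Mapk7 (exon 4 of 7), chr14:33392976-33393026 on the minus strand for Mapk8 (exon 6 of 12), chr11:49872815-49872865 on the plus strand for Mapk9 (exon 6 of 12), chr15:89134649-89134699 on the minus strand for Mapk12 (exon 7 of 12) and chr17:28728384-28728434 on the plus strand for Mapk14 (exon 7 of 12). The window of Mapk6 crosses the junction of exons 2 and 3 of 6 and spans chr9:75395610-75397584 on the minus strand. Sequences are those of the reference strain, not of the cells.

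The libraries held between 15883712 and 16374119 estimated counts, on 13810 to 14657 genes with a count above 0. Of 10 adipocyte markers, 7 were under 1 FPKM in every library, among them Adipoq, Plin1, Cidec, Lep, Cebpa and Slc2a4, while Fabp4, Pparg and Lpl were present. The summed level of the 10 markers was 377 and 431 FPKM in the control libraries and 265 and 275 FPKM with risperidone. Lpl (log2 fold change -0.24) and Fabp4 (-1.09) made up nearly all of this sum and were lower, while Pparg was not called (0.12). The label of adipocytes thus rests on few of its defining transcripts. The 7 preadipocyte markers summed to 483 and 473 FPKM in the controls and 894 and 861 FPKM with risperidone. Col1a1 made up most of each sum, with 379.76, 368.28, 714.61 and 674.25 FPKM in that order. Of the 6 tested, 4 were higher (Dlk1, Thy1, Ly6a and Col1a1) and 1 lower (Pdgfrb, log2 fold change -0.5), while Pdgfra was not called (-0.03). By the same test, described below, 32.1% of all tested genes were higher and 32.2% lower. Kidney markers, 8 in number, summed to between 1.83 and 2.82 FPKM in 3 libraries and to 179 FPKM in risperidone replicate 2. The labels name retina as the extracted tissue, but the retina markers found, 6 of 9, summed to no more than 1.28 FPKM. Macrophage markers, 5 of 6 found, summed to between 15.5 and 18.3 FPKM, and the 4 endothelial markers to no more than 0.56 FPKM. Of the 2 macrophage markers tested, Cd68 was higher (log2 fold change 1.19) and Cd14 lower (-0.35). The part of these differences in the values below was not tested, except that the fold changes were also computed without risperidone replicate 2. In bulk RNA, fewer cells of a type and less RNA per cell cannot be told apart.

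Compared with the control, risperidone was accompanied by a higher level of 2 MAP kinase transcripts, Mapk6 and Mapk3, and a lower level of 3, Mapk14, Mapk8 and Mapk7. The test was edgeR's quasi-likelihood F-test on rounded counts, two-sided, over the 10243 genes whose mean reached 1 FPKM, with Benjamini-Hochberg adjustment over all of them and a threshold of 0.05. Of the 7 genes, 6 were tested and Mapk12 lay under the limit. Since 64.3% of all tested genes passed this threshold, 32.1% as higher and 32.2% as lower, 5 of 6 (83.3%) is not read as a result about these genes, and what follows concerns the size and direction of each change. Log2 fold changes are risperidone over control, and FPKM is the authors' measure of level per transcript length. The median log2 fold change of all tested genes was -0.084 on log2(FPKM + 1), against 0.00044 in this test. Levels in FPKM thus stand slightly lower with risperidone than the fold changes do.

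**Figure D1:**
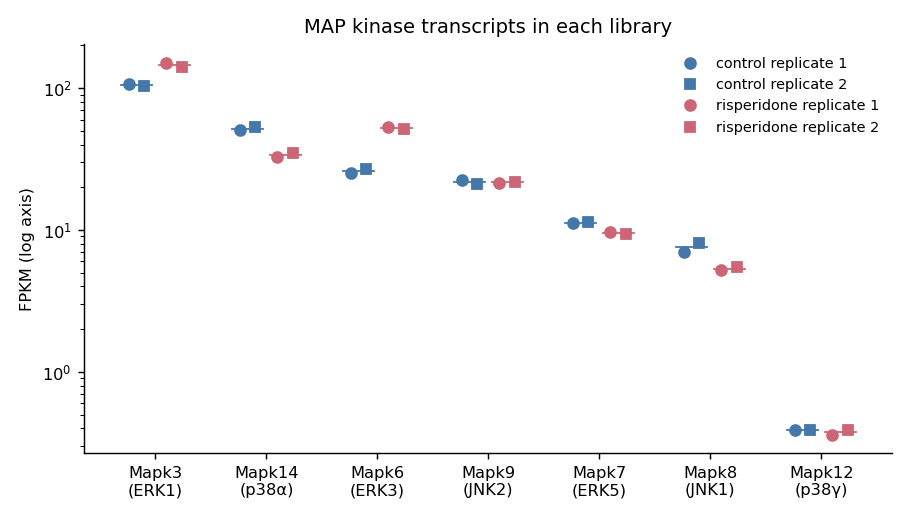
FPKM of each MAP kinase in each library on a log axis, with controls in blue, risperidone in red, circles for replicate 1, squares for replicate 2 and lines for the group means. The levels of Mapk6 and Mapk3 are higher and those of Mapk14, Mapk8 and Mapk7 lower in both risperidone libraries, while Mapk9 overlaps between the groups and Mapk12 lies near 0.4 FPKM throughout.

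By FPKM, the order of the transcripts in the control was Mapk3, Mapk14, Mapk6, Mapk9, Mapk7, Mapk8 and Mapk12, with group means of 105, 51.8, 26.0, 21.8, 11.3, 7.53 and 0.39 FPKM. With risperidone the order was Mapk3, Mapk6, Mapk14, Mapk9, Mapk7, Mapk8 and Mapk12, so that Mapk6 and Mapk14 changed places. In neither group did the libraries of a gene overlap those of the next gene in the order. The closest neighbours were Mapk6 and Mapk9 in the control, whose means differed 1.20-fold. Mapk3 had a higher mean FPKM over the 4 libraries than 94.6% of the tested genes, Mapk14 than 80.8% and Mapk6 than 78.9%, whereas Mapk7 and Mapk8 lay above 39.8% and 27.1%.

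Among the ERK genes, Mapk6 showed the largest change of the 6 genes tested. Its product, ERK3, is known as an unstable kinase that binds and activates the kinase MK5. Mapk6 (NCBI Gene 50772, chr9:75386782-75410016) stood at 25.40 and 26.69 FPKM in the control libraries and at 53.48 and 51.49 FPKM with risperidone, from 1693, 1727, 3545 and 3357 counts. The groups were far apart and the libraries of each group lay close together. On the log2 scale the change was 1.11 (standard error 0.0496, 95% interval 1.0 to 1.22, adjusted p = 3.99e-08 from edgeR), a 2.15-fold higher level. A log2 fold change of at least 1 together with the adjusted p was reached by 2.61% of the tested genes, and 2.10% of all tested genes rose by as much as Mapk6 or more.

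Mapk3 (NCBI Gene 26417, chr7:126759626-126765816) encodes ERK1, a classical target of the growth factor pathway. It stood at 107.54 and 102.92 FPKM in the control libraries and at 151.30 and 141.37 FPKM with risperidone. Both risperidone libraries were above both controls. The log2 fold change was 0.57 (standard error 0.0521, 95% interval 0.46 to 0.69, adjusted p = 3.95e-06 from edgeR), or 1.49-fold. Of all tested genes, 10.1% rose by as much as Mapk3 or more.

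Mapk7 (NCBI Gene 23939, chr11:61488812-61494267) encodes ERK5, a large MAP kinase activated by the dedicated kinase MEK5. It stood at 11.14 and 11.39 FPKM in the control libraries and at 9.62 and 9.33 FPKM with risperidone. The groups did not overlap, but the difference was small, and the estimate was -0.16 on the log2 scale (standard error 0.0612, 95% interval -0.30 to -0.028, adjusted p = 0.0361 from edgeR). This call was lost when any 1 library was left out, with adjusted p between 0.0621 and 0.179 from edgeR and log2 fold changes between -0.19 and -0.14. It was also lost with a replicate block (adjusted p = 0.0722), without a filter (0.066) and with DESeq2 (0.283). In the annotation, 89 of the 4394 exonic bases of Mapk7 overlap Mfap4 on the other strand, and whether the counting used strand is not given in the sources used here. Mapk6 made up 69.5% and 70.1% of the summed FPKM of Mapk6 and Mapk7 in the control libraries and 84.8% and 84.7% with risperidone. The differences in this and the other shares were not tested.

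Both p38 genes were present at very different levels. Mapk14 (NCBI Gene 26416, chr17:28691342-28748405) encodes p38α, the p38 kinase found in most tissues. It stood at 50.59 and 53.01 FPKM in the control libraries and at 32.67 and 35.14 FPKM with risperidone, and each risperidone library was below each control. The decrease of 0.51 on the log2 scale had a 95% interval of -0.63 to -0.40 and an adjusted p of 7.86e-06 from edgeR. Of the genes tested, 15.2% fell by as much as Mapk14 or more. Mapk12 (NCBI Gene 29857, chr15:89130584-89141577) encodes p38γ, which is known mainly from skeletal muscle. Its counts were 9 and 10 in the control libraries and 8 and 11 with risperidone, so 19 stood against 19. The ratio of the summed counts was 1.0, with an exact 95% interval of 0.501 to 2.0 that covers counting error only. No difference was detectable for Mapk12 at this depth, since the interval holds changes of up to 2.0-fold in either direction. Without a filter, edgeR gave it an adjusted p of 0.911, where 37.6% of 16021 genes were called.

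Mapk14 carried 98.1% and 98.0% of the summed FPKM of the p38 genes in the control and 97.4% and 97.1% with risperidone. Nearly all the rest came from Mapk12 and from Mapk11, which encodes p38β and had 19 to 26 counts per library. Mapk13, the gene of p38δ, had 0, 0, 0 and 1 counts. The summed level of the p38 genes was 51.6 and 54.1 FPKM in the controls and 33.5 and 36.2 FPKM with risperidone, and it followed Mapk14.

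**Figure D2:**
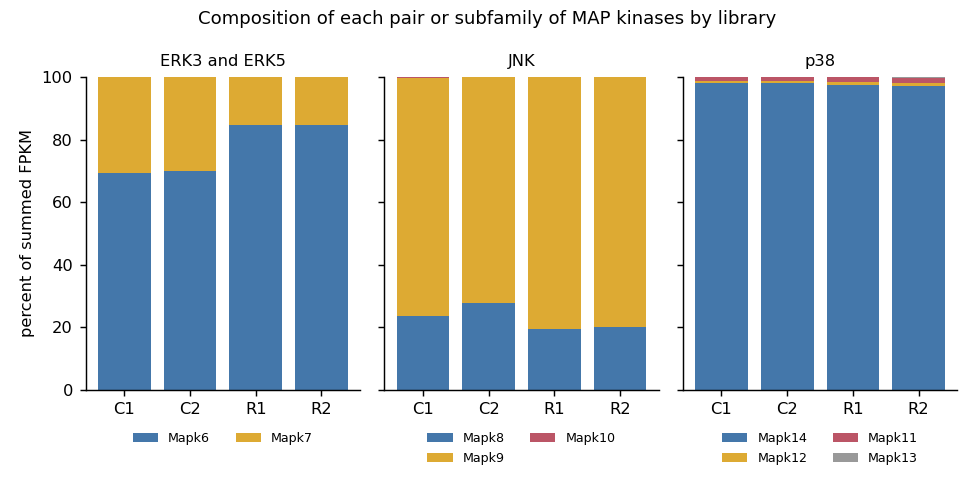
Share of each gene in the summed FPKM of its branch or pair, in percent, for control replicates 1 and 2 (C1, C2) and risperidone replicates 1 and 2 (R1, R2). Mapk6 takes a larger share against Mapk7 in both risperidone libraries, Mapk8 lies at 19.5% and 19.9% of the JNK genes with risperidone against 23.7% and 27.7%, and Mapk14 holds over 97% of the p38 genes in each library.

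Of the JNK genes, Mapk8 passed the test and Mapk9 did not, except with offsets for transcript length and GC (0.19, adjusted p = 0.0041 from edgeR). Mapk8 (NCBI Gene 26419, chr14:33377898-33447353) encodes JNK1. It stood at 6.98 and 8.08 FPKM in the control libraries and at 5.20 and 5.46 FPKM with risperidone, with an estimate of -0.36 on the log2 scale and a 95% interval of -0.52 to -0.20. The groups did not overlap, and the control libraries differed more from each other than the risperidone libraries did. The adjusted p of Mapk8 remained under 0.05 without either control library, with log2 fold changes of -0.45 without replicate 1 and -0.26 without replicate 2. Once trends with transcript length and GC content were removed, the estimate for Mapk8 was -0.23 and the call held.

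The count of Mapk8 per FPKM, which follows the transcript length that the authors' pipeline assigned to the gene, was 1.88 and 1.87 times the library median in the controls and 1.98 and 1.90 times with risperidone. This range of 6.08% between libraries was wider than that of 88.4% of the 10038 genes measured, whose median range was 0.945%. The same ratio ranged by 0.397% to 1.14% for the other 5 tested genes. Mapk8 thus combined fewer counts with a slightly longer assigned transcript in risperidone replicate 1.

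Mapk9 (NCBI Gene 26420, chr11:49846728-49886421) encodes JNK2. It stood at 22.43 and 21.11 FPKM in the control libraries and at 21.50 and 21.93 FPKM with risperidone, and the risperidone values lay between the control values. Scaled by TMM, its level was 99.1 and 93.0 CPM (counts scaled to library size) in the control and 102 and 103 with risperidone, so that the groups did not overlap on that scale, as for 82.9% of all tested genes. The log2 fold change was 0.09 (standard error 0.0527, 95% interval -0.025 to 0.21, adjusted p = 0.153 from edgeR). Its sign turned with library size as the only scaling (-0.0025), where the median of all genes was -0.093. The interval leaves room for a change of up to 1.15-fold. Mapk9 made up 76.1% and 72.3% of the summed FPKM of the JNK genes in the controls and 80.5% and 80.1% with risperidone, and Mapk10, the third JNK gene, had 2, 0, 0 and 0 counts.

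**Figure D3:**
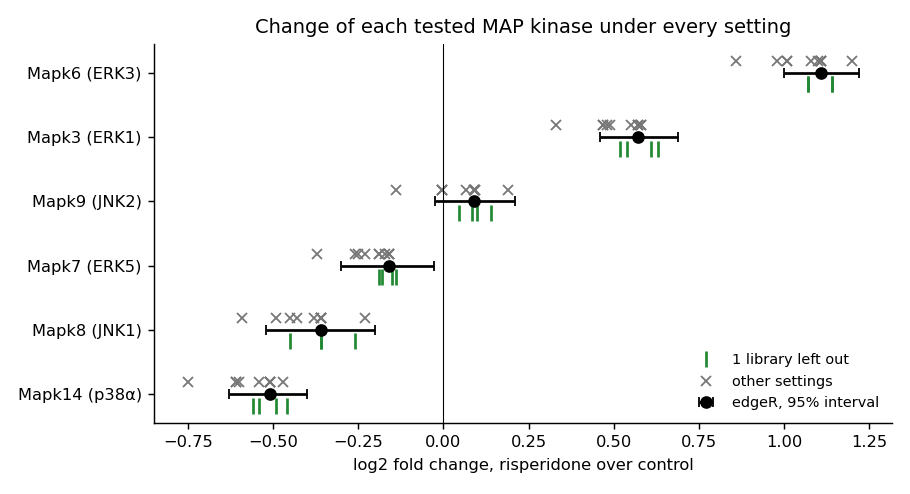
Log2 fold change of the 6 tested MAP kinases, risperidone over control, from edgeR with its 95% interval (black), with 1 library left out (green) and in the other settings (grey crosses). Mapk6 lies between 0.86 and 1.20, Mapk3 between 0.33 and 0.63, Mapk14 between -0.75 and -0.46 and Mapk8 between -0.59 and -0.23 in every setting, while Mapk9 falls on both sides of 0.

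For Mapk6, Mapk3, Mapk14 and Mapk8 the direction and the call held in all 14 alternatives. Without risperidone replicate 2, the library with the kidney transcripts, their log2 fold changes were 1.14, 0.63, -0.56 and -0.36. Nlk, a distant gene of the family, passed the limit for testing, and its estimate was -0.28 on the log2 scale (adjusted p = 0.0103 from edgeR), which became -0.17 without risperidone replicate 1 and -0.40 without replicate 2. Nlk lost this call without control replicate 1 (adjusted p = 0.0795 from edgeR), without risperidone replicate 1 (0.101), without a filter (0.0517) and with DESeq2 (0.0776). Mapk15 had 3 to 10 counts per library, and Mapk4 had 1, 1, 1 and 9, the last in risperidone replicate 2.

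Genes of the other tiers were grouped in 8 lists, written from general knowledge with earlier results of these data known. Together they held 80 tested genes, of which 20 were higher and 25 lower, or 56.2%, against 64.3% of all tested genes, with a median log2 fold change of -0.05 against 0.00. Each count below stands against the 32.1% of all tested genes that were higher and the 32.2% that were lower, and is a description, not a test of the list. The limit on the mean let Dusp4 in through its risperidone libraries and kept out Map3k13, Mapkapk3, Fos and Dusp6, whose mean FPKM was lower with risperidone, so these counts cover only the genes that passed it.

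One step above the MAP kinases, all 7 MAP kinase kinases were tested, 4 were lower and 0 were higher, with a median log2 fold change of -0.17. Map2k1 and Map2k2, which encode the MEK1 and MEK2 that activate ERK1, had log2 fold changes of -0.17 and -0.39. Map2k2 went from 49.4 ± 0.247 to 35.1 ± 0.948 FPKM (SD, n = 2 libraries). The transcripts of ERK1 and of its activating kinase MEK2 thus moved in opposite directions. Map2k3, whose product activates p38α, fell with Mapk14, from 35.0 ± 1.08 to 24.2 ± 0.672 FPKM (-0.44). Map2k4, upstream of JNK and p38, stood at -0.24. The call of Map2k1 was lost without control replicate 1 (-0.11), without risperidone replicate 1 (-0.10), without a filter and with DESeq2, and that of Map2k4 without control replicate 2. Map2k5, which encodes MEK5, did not pass (-0.13, adjusted p = 0.0718 from edgeR) but did so with library size as the only scaling (-0.22, adjusted p = 0.00624), with limma on FPKM or TPM, with a mean of at least 5 FPKM (-0.15, adjusted p = 0.0362) and with the length and GC offsets (-0.17, adjusted p = 0.0194). With library size only and with limma, the median of all genes was itself between -0.22 and -0.084. The test was not passed by Map2k6 or Map2k7, although Map2k7 was called on log2(TPM + 1) (-0.21, adjusted p = 0.0113 from limma), where that median was -0.22.

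Of 19 tested MAP kinase kinase kinases, 4 were higher and 8 lower. The largest decreases were those of Map3k5, the stress kinase ASK1 upstream of JNK and p38 (log2 fold change -1.07, from 5.04 ± 0.0424 to 2.25 ± 0.0919 FPKM), and Map3k14, the NF-κB-inducing kinase (-0.92). The largest increases were those of Map3k8 (0.61), which feeds the ERK pathway, and Braf (0.56), which phosphorylates MEK1 and MEK2. Among 11 tested genes that lead to Ras, 1 was higher and 3 lower, and the largest decreases were those of Shc1 (-0.48) and Hras (-0.36). For the 5 tested MAP4K genes, Map4k4 (-0.17) and Map4k3 (-0.14) were lower and 0 were higher. Map4k3 and Map4k4 each lost their call when either control library was left out, with adjusted p between 0.0618 and 0.254 from edgeR, and Map4k3 also without risperidone replicate 1 (0.0945). Under the other settings the call was lost in 4 for Map4k3 and in 1 for Map4k4, and with the length and GC offsets their estimates were -0.049 and -0.077.

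Scaffolds and partners of the MAP kinases had 4 higher and 2 lower members among 11 tested. Mapk8ip3, the JNK scaffold JIP3, rose from 33.8 ± 0.0707 to 70.5 ± 2.56 FPKM (1.16), whereas Mapk8ip1, the scaffold JIP1, fell from 7.67 ± 1.10 to 4.80 ± 0.226 FPKM (-0.54). Pea15a, whose product holds ERK in the cytoplasm, fell by 0.89 on the log2 scale, and Tab1, a partner of TAK1 that also binds p38α, rose by 0.66. Among the 9 tested kinases downstream, 4 were higher and 2 lower. Mapkapk2, the main substrate kinase of p38α, fell (-0.34), and so did Rps6ka3 (-0.28), the ERK substrate RSK2, which was at -0.14 with the length and GC offsets (adjusted p = 0.0159 from edgeR). Mapkapk5, which encodes the ERK3 partner MK5, rose from 20.4 ± 0.0212 to 27.1 ± 0.304 FPKM (0.50), as did Mknk1 (0.58), a kinase of the translation factor eIF4E.

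Of 12 tested nuclear substrates, 4 were higher and 3 lower. Ddit3, the stress factor CHOP and a p38 substrate, had the largest increase, from 111 ± 4.45 to 443 ± 85.6 FPKM (2.0), followed by Myc (1.47). Jun, the substrate for which JNK is named, fell from 12.9 ± 0.240 to 8.68 ± 0.318 FPKM (-0.48), and Elk4 fell as well (-0.95). Of the Dusp phosphatases, which remove the phosphates from the activation loop, 9 were in the table and 5 had a mean of over 1 FPKM in both groups. Of these 5, Dusp10 (1.56) and Dusp16 (0.51) rose, and Dusp1 fell from 32.4 ± 0.283 to 5.25 ± 0.997 FPKM (-2.53). Dusp4 entered the test only through the risperidone group, with 11 and 29 counts in the control libraries and 65 and 59 with risperidone, and its estimate of 1.72 became 0.81 with limma on log2(FPKM + 1), 1.17 without control replicate 1 and 2.59 without control replicate 2. Dusp6, with 20 and 27 counts in the control libraries and 7 and 12 with risperidone, lay under the limit and was not tested.

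**Figure D4:**
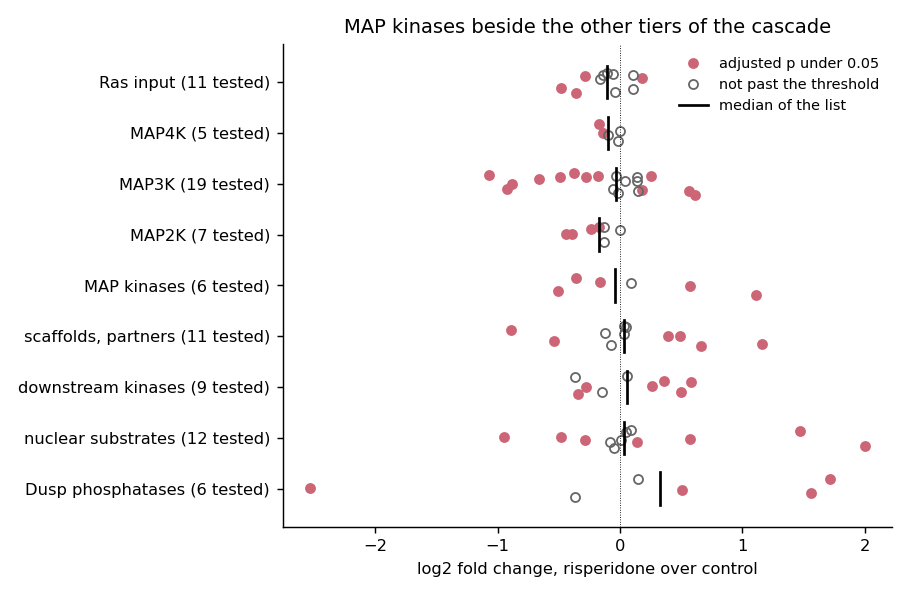
Log2 fold change, risperidone over control, of each tested gene in 8 lists of MAP kinase signalling and of the MAP kinases themselves, with filled points for an adjusted p under 0.05 and a bar for the median of each list. The MAP2K points lie at or below 0 in full, with a median of -0.17, while the MAP kinases spread from -0.51 to 1.11.

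By the root mean square difference of centred log2 CPM over the 4 libraries, the profile most like that of Mapk14 among the 80 genes was Taok2 (0.0256), followed by Shc1 (0.0261) and Map2k3 (0.0422). For Mapk6 it was Mapk8ip3 (0.0369), with Myc (0.202) and Tab1 (0.228) far behind. With 4 libraries in 2 groups, such a profile is mostly the size of the change, so the likeness describes these libraries only.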

How the data were processed

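Per the authors' methods, sequencing ran on the MGISEQ-2000, and reads were cleaned of adaptors, of poly-N and of low quality. The deposited table gives an estimated (expected) count, FPKM and TPM per gene and library. The authors computed FPKM on the DC.TOM platform, and TPM was deposited scaled to a fixed sum. The expected counts were deposited without normalization. The submitters' processing notes name Bowtie2, RSEM, DESeq2 and GRCm38.p6, with no roles or versions. Columns of group means, by the authors, were not used. A count of 0 allows 3 counts, or up to 0.189 CPM.

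Counts were rounded and tested with edgeR 4.0.16 in R 4.3.3, with TMM factors of 1.03, 1.03, 0.963 and 0.973 (control, then risperidone) and a biological coefficient of variation of 0.0468. Each standard error was derived from F as |log2 fold change|/√F. Alternatives used limma 3.58.1, with a pseudocount of 1 or 0.1, and DESeq2 1.42.0. Offsets removed loess trends (span 0.3) with relative length, from counts per FPKM where each library had at least 20 counts, and GC content of the longest GENCODE M21 transcript, for 10129 genes. Tools were tested on simulated data.

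Members and lists were chosen with earlier results of these data known. Named genes were all family genes, up to 2 increases and 2 decreases per list among called genes without overlap, and the 3 profiles nearest to Mapk6 and Mapk14. Map2k1, Map2k4, Map2k5, Map2k6, Map2k7, Dusp6, Dusp16, Map3k13, Mapkapk3 and Fos were added after their values were seen. Some genes that this rule names are not reported here. Figures were drawn with matplotlib 3.10.9 in Python 3.11.15.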

Additional observations from a re-analysis of the deposited data

How the results depend on the processing

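With 2 pooled libraries per group, p-values measure the spread between libraries only. The direction of Mapk3, Mapk6, Mapk8 and Mapk14 and their calls held in all 14 alternatives. With each library left out in turn, log2 fold changes were 0.52 to 0.63 for Mapk3, 1.07 to 1.14 for Mapk6, -0.45 to -0.26 for Mapk8, -0.56 to -0.46 for Mapk14, -0.19 to -0.14 for Mapk7 and 0.045 to 0.14 for Mapk9. Mapk7 was called in 7 of 14, and lost its call with DESeq2 (-0.16), without a filter (-0.17) and with the replicate block (-0.16), besides every library left out. Mapk9 turned in sign with library size only (-0.0025), with limma on log2(FPKM + 1) (-0.0029), with a pseudocount of 0.1 (-0.003) and on log2(TPM + 1) (-0.14), and was called with the length and GC offsets (0.19, adjusted p = 0.0041 from edgeR). In the settings where its sign turned, the median of all genes was -0.093, -0.084, -0.092 and -0.22, in that order. Relative to that median, Mapk9 was at 0.091, 0.081, 0.089 and 0.08, against 0.09 in the main fit. The cause of these differences between settings was not tested.

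On log2(TPM + 1) the median of all genes was -0.22, and 1536 genes were higher and 5292 lower, against 3287 and 3303. Relative to that median, Mapk6 was at 1.08, Mapk3 at 0.55, Mapk9 at 0.08, Mapk7 at -0.15, Mapk8 at -0.37 and Mapk14 at -0.52. The log2 ratio of mean TPM was 0.33 for Mapk3, 0.87 for Mapk6, -0.39 for Mapk7, -0.64 for Mapk8, -0.15 for Mapk9, -0.19 for Mapk12 and -0.75 for Mapk14, and with counts over a fixed length that of Mapk12 was 0.0012.

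Same-numbered libraries deviated with a correlation of -0.105, so the numbers were not taken as pairs. With a replicate block 3292 genes were higher and 3321 lower, 2 members were higher and 2 lower, and among the list counts MAP4K lower (1) and Ras input lower (5) moved by over 1.5 times. With the numbers crossed, chosen after seeing the data, 3474 and 3519 genes and 2 and 2 members were called.

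Of 252 list counts under the alternatives, 207 stayed within 1.5 times. On log2(TPM + 1) the lower counts became 2 for the other family genes, 4 for MAP4K, 8 for Ras input, 6 for scaffolds, 5 for downstream kinases, 7 for nuclear substrates and 2 for Dusp genes, and the higher counts 2 for MAP3K, 2 for downstream kinases and 0 for Ras input. With limma on FPKM, at either pseudocount, 2 MAP3K and 0 Ras input genes were higher and 4 scaffolds lower, and Ras input lower was 5 or, at 0.1, 6. With library size only, 0 Ras input genes were higher and 6 lower, and 4 scaffolds and 4 downstream kinases were lower. DESeq2 gave 0 other family genes and 1 MAP4K gene lower and 0 Ras input genes higher. Without a filter, 0 other family genes and 1 MAP4K gene were lower. A mean of at least 5 FPKM gave 6 Ras input genes lower and 1 Dusp gene higher. The offsets gave 7 MAP3K and 3 Ras input genes higher and 0 MAP4K genes lower. With 1 library left out, lower counts ranged from 0 to 1 for the other family genes, 0 to 2 for MAP4K, 3 to 5 for Ras input and 2 to 4 for downstream kinases, and higher counts from 0 to 2 for Ras input.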
